A study of Mus musculus with 12 samples.

Results

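The cone phototransduction cascade was followed through 10 of the 54232 genes in the count table: the cone opsins Opn1sw and Opn1mw, the cone transducin subunits Gnat2, Gnb3 and Gngt2, the cone phosphodiesterase subunits Pde6c and Pde6h, the cone channel subunits Cnga3 and Cngb3, and the cone arrestin Arr3. The list follows the genes' role, and no measured value enters the rule, but it was drawn up with earlier results of these data known. Each gene matched a single Ensembl gene. The libraries, 12 in all and 3 in each of 4 groups, were made from small pools of cells picked from the retinas of adult wild-type male mice. All eyes had an optic nerve crush, which injures the axons of retinal ganglion cells, and an AAV2 vector injected into the vitreous. The vector carried green fluorescent protein (GFP, the control) or Olig1, a bHLH (basic helix-loop-helix) protein that regulates transcription in oligodendrocytes and their precursors. Cells were taken at day 7 or day 14 after the crush, which gives the groups GFP day 7 and GFP day 14 (controls) and Olig1 day 7 and Olig1 day 14. For the time since injection the labels give 14 days in all 12 libraries, at both days after the crush. The groups include no uncrushed and no uninjected eyes. The labels name the cells as retinal ganglion cells, held back on CD90.2 beads and picked singly by fluorescence, with between 10 and 20 cells in a pool depending on which label is read. The replicates are pools, and the labels do not say how many animals stand behind them, so p-values measure the spread between pools.

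Cones are the photoreceptors of daylight and colour vision. Light changes the shape of an opsin, which activates transducin, a G protein made of an alpha, a beta and a gamma subunit. The alpha subunit takes the inhibitory subunit off phosphodiesterase, cyclic GMP is broken down, the cyclic nucleotide-gated channel closes, and arrestin ends the signal by binding the opsin. Rods run the same steps with a paralogous set of proteins. Ganglion cells receive the result through bipolar cells and do not use this cascade for form vision. Among the 10 genes, Gnb3 also encodes a G protein subunit of ON bipolar cells, and Gngt2 is also transcribed in myeloid cells.

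Each library held 12534515 to 27602459 counts, so a gene with a count of 0 could still have had up to 0.109 to 0.239 counts per 1000000 counts of its library (CPM), counting error only. Olig1 was at 0 to 0.351 CPM in the 6 GFP libraries and at 56.4 to 1029 CPM in the 6 Olig1 libraries, in the order the labels give. Ganglion cell markers were scarce in the control pools. The summed level of 12 ganglion cell markers was 29.5 to 253 CPM in the 6 GFP libraries, where Pou4f2 was at 0 in all 6 and Slc17a6 at 0 in 5, with 2 reads in the other. The same sum was 1249 to 3095 CPM in Olig1 day 7, and 118, 136 and 2788 CPM in Olig1 day 14. Müller glia markers summed to 46872 to 145190 CPM and were present in every library. Microglia and macrophage markers summed to 1031 to 6445 CPM in 4 libraries (GFP day 7 replicate 3, Olig1 day 7 replicate 3, GFP day 14 replicates 2 and 3) and to at most 34.5 CPM in the other 8. GFP day 14 replicate 3 also held 132490 CPM of 4 B lineage markers. In pools of this kind, fewer cells of a type and less RNA per cell cannot be told apart.

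Cone cascade transcripts were present in every group but very unevenly. Between 3 and 10 of the 10 genes had at least 1 read in a library, and all 10 did in GFP day 14 replicates 2 and 3 alone. The share of Gnb3 in the reads of the 10 genes ran from 5.61% in Olig1 day 14 replicate 2 to 99.8% in GFP day 14 replicate 1. Summed over the 10 genes, the mean level was 1754 ± 295 CPM in GFP day 7, 62.8 ± 42.1 in Olig1 day 7, 4125 ± 2553 in GFP day 14 and 325 ± 379 in Olig1 day 14 (SD, n = 3 each). Without Gnb3 the same sums were 550 ± 499, 27.6 ± 13.6, 643 ± 1040 and 204 ± 285 CPM, so at day 14 the spread was wider than the means. Cone markers outside the cascade (Thrb, Rxrg, Ccdc136, Kcne2 and Slc24a2) summed to 112 to 275 CPM in GFP day 7, 136 to 414 in Olig1 day 7, 333 to 912 in GFP day 14 and 67.6 to 178 in Olig1 day 14. Of the 414 CPM, 382 were Thrb in Olig1 day 7 replicate 2, and of the 912 CPM, 716 were Ccdc136. Ccdc136 was at 119, 53.3 and 79.1 CPM in GFP day 7 and at 58.7, 14.8 and 73.7 CPM in Olig1 day 7, with overlap. At day 14 it was at 716, 309 and 260 CPM with GFP and at 23.6, 116 and 48.3 CPM with Olig1. Those day 14 arms did not overlap, beside 4.12% of all genes tested with every Olig1 library below every GFP library. The markers did not share a direction. Over both days Thrb was at 2.51 ± 1.09, Rxrg at 1.08 ± 1.88 and Slc24a2 at -0.15 ± 0.54 (log2, SE, edgeR adjusted p = 0.293, 0.878 and 0.965). No marker of this list except Kcne2 was called. Kcne2, a potassium channel subunit, was at 0.70 to 124 CPM in the 6 GFP libraries and at 0 to 0.40 CPM in the 6 Olig1 libraries, and was named after its values were seen. Over both days it fell by 8.13 ± 1.73 (log2, SE, edgeR adjusted p = 0.0439), a call lost in 13 of 17 alternatives (adjusted p from 1.93e-05 to 0.146), among them each fit without 1 library except that without GFP day 14 replicate 1.

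**Figure D1:**
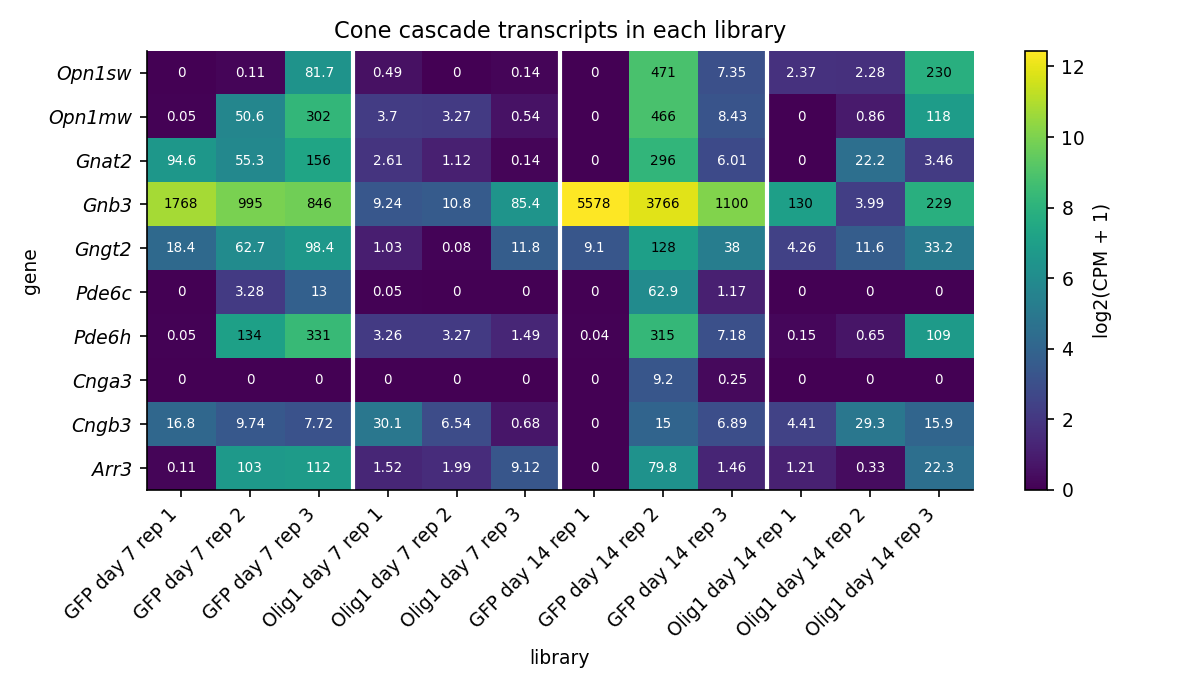
Level of the 10 cone cascade genes (rows) in the 12 libraries (columns), as colour on a log2(CPM + 1) scale. Gnb3 is the row that separates the GFP from the Olig1 libraries, while GFP day 14 replicate 1 has Gnb3 at 5578 CPM and 7 of the 10 genes at 0.

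Compared per kilobase of exon, so that genes of different length can be set side by side, Gnb3 led with a mean of 460 ± 666 CPM per kb over the 12 libraries (SD). Below it came Opn1mw at 50.9, Opn1sw at 25.9, Gngt2 at 18.5, Gnat2 at 17.8, Arr3 at 11.8 and Pde6h at 9.63 CPM per kb. The lowest were Cngb3 at 2.53, Pde6c at 2.25 and Cnga3 at 0.199 CPM per kb. None of the 9 gaps between neighbours in this order was larger than the wider of the SDs on either side. Gnb3 led in 9 libraries. The leaders in the other 3 were Cngb3 in Olig1 day 7 replicate 1, Gnat2 in Olig1 day 14 replicate 2 and Opn1sw in Olig1 day 14 replicate 3. The value for Pde6h is lowered by its long exon model of 7846 bases.

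Against GFP, Olig1 pools had lower fitted values for most of the cascade, but the difference passed the test for a single gene. Of the 10 genes, 9 had enough counts to enter the edgeR quasi-likelihood test across 14985 genes, and Cnga3 did not. Over both days, Gnb3 fell by 4.91 ± 0.85 (log2, SE) in 6 against 6 libraries (edgeR adjusted p = 0.0291), and it was the only one of the 9 called, where 0.654% of all genes tested were called and 0.274% were called lower. At day 7 none of the 9 was called (0.227% of all genes, 0.0868% lower), with 4 of 9 at an unadjusted p under 0.05 against 13.9% of all genes. At day 14 none was called (0.04% of all genes, 0.02% lower), with 2 of 9 at an unadjusted p under 0.05 against 10.4%. Over both days 4 of 9 had an unadjusted edgeR p under 0.05, against 14.9% of all genes. DESeq2's Wald test, a second tool that calls far more genes in these data, called 1 cone gene at day 7 and 2 at day 14. Over all genes it called 1128 and 842, where edgeR called 34 and 6. The fitted change was negative for 8 of the 9 in each of these comparisons, Cngb3 being the exception. Its median over the 9 was -5.18 at day 7, -1.84 at day 14 and -3.55 over both days, beside -0.03, 0.09 and 0.06 over all genes tested. The 9 are not separate observations, since they come from the same pools.

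**Figure D2:**
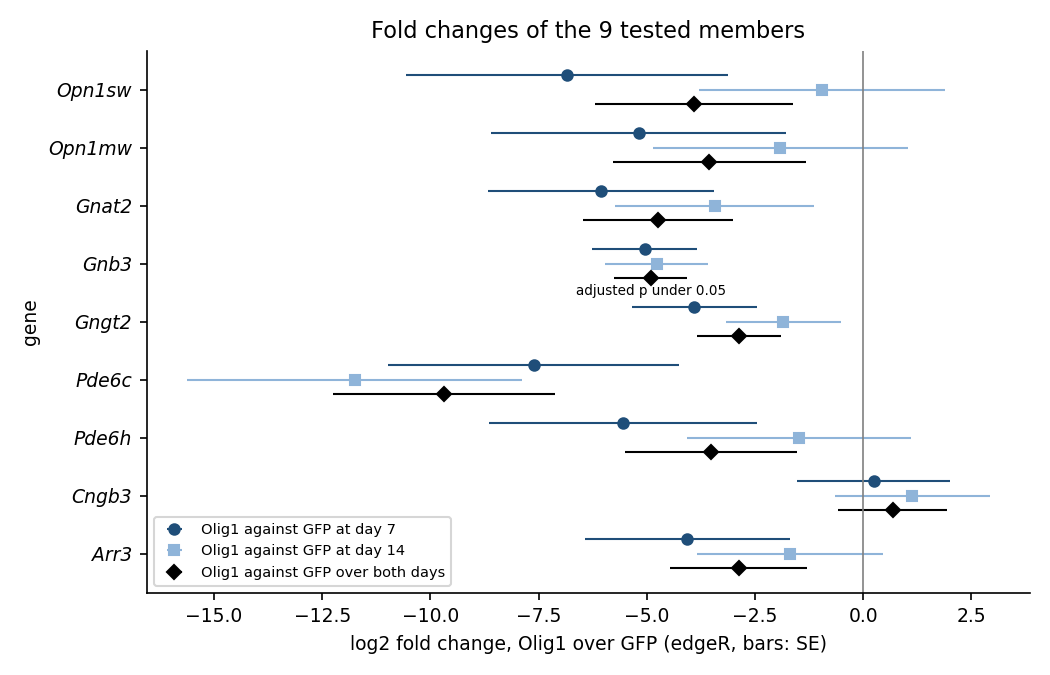
Fitted log2 fold change of Olig1 over GFP (horizontal axis, bars are SE) for the 9 cone cascade genes tested, at day 7, at day 14 and over both days. Gnb3 has the narrowest bars of the genes far from 0, from -5.05 to -4.77, and Cngb3 alone lies to the right of 0 in all 3 comparisons.

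The opsins, the light-absorbing proteins at the head of the cascade, were each carried by a few libraries. Opn1sw, the short-wavelength opsin (minus strand, chr6:29376671-29388468 on GRCm38), was at 0, 0.11 and 81.7 CPM in GFP day 7 and at 0.49, 0 and 0.14 CPM in Olig1 day 7. By day 14 the level was 0, 471 and 7.35 CPM with GFP and 2.37, 2.28 and 230 CPM with Olig1. In each of GFP day 7, GFP day 14 and Olig1 day 14, a single library held nearly all of the reads, and the arms overlapped at both days. Its fitted change was -6.85 ± 3.72 at day 7 (edgeR adjusted p = 0.448) and -0.95 ± 2.85 at day 14 (edgeR adjusted p = 1.00). Without GFP day 7 replicate 3 the day 7 value was 1.76, and without GFP day 14 replicate 2 the day 14 value was 4.01, both of the other sign. Opn1sw shares 397 exon bases with Calu on the opposite strand, which had up to 1402 reads in a library. The strand setting of the counting is not given in the sources used here.

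Opn1mw, the medium-wavelength opsin (plus strand, chrX:74127464-74150760), was at 0.05, 50.6 and 302 CPM in GFP day 7 and at 3.70, 3.27 and 0.54 CPM in Olig1 day 7. In the day 14 pools it was at 0, 466 and 8.43 CPM with GFP and at 0, 0.86 and 118 CPM with Olig1. The highest library of each GFP arm was above every Olig1 library, but the lowest GFP library was at or below every Olig1 one. The fitted change was -5.18 ± 3.41 at day 7 (edgeR adjusted p = 0.555) and -1.92 ± 2.95 at day 14 (edgeR adjusted p = 1.00). Without GFP day 14 replicate 2 the day 14 value was 2.83.

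Mouse cones often make both opsins, in proportions that depend on the place in the retina. Opn1sw made up 0 of 1 opsin reads, 0.216% of 927 and 21.3% of 6557 in GFP day 7 (95% Wilson intervals 0 to 79.3%, 0.0592 to 0.783% and 20.3 to 22.3%). In Olig1 day 7 it made up 11.7% of 77, 0 of 41 and 20.0% of 10 reads (6.27 to 20.7%, 0 to 8.57% and 5.67 to 51.0%). In GFP day 14 it made up 50.3% of 25871 and 46.6% of 378 reads (49.7 to 50.9% and 41.6 to 51.6%), with no opsin read in replicate 1. In Olig1 day 14 it made up 100% of 49, 72.7% of 77 and 66.1% of 6536 reads (92.7 to 100%, 61.9 to 81.4% and 64.9 to 67.2%). All 6 day 7 libraries were thus at 21.3% or below, and the 5 day 14 libraries with opsin reads at 46.6% or above. This split by day was noticed after the values were seen and is given with no test. The reads were amplified without molecular identifiers, so these intervals cover counting error only. Whether some Opn1sw reads came from the exon bases shared with Calu was not tested.

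**Figure D3:**
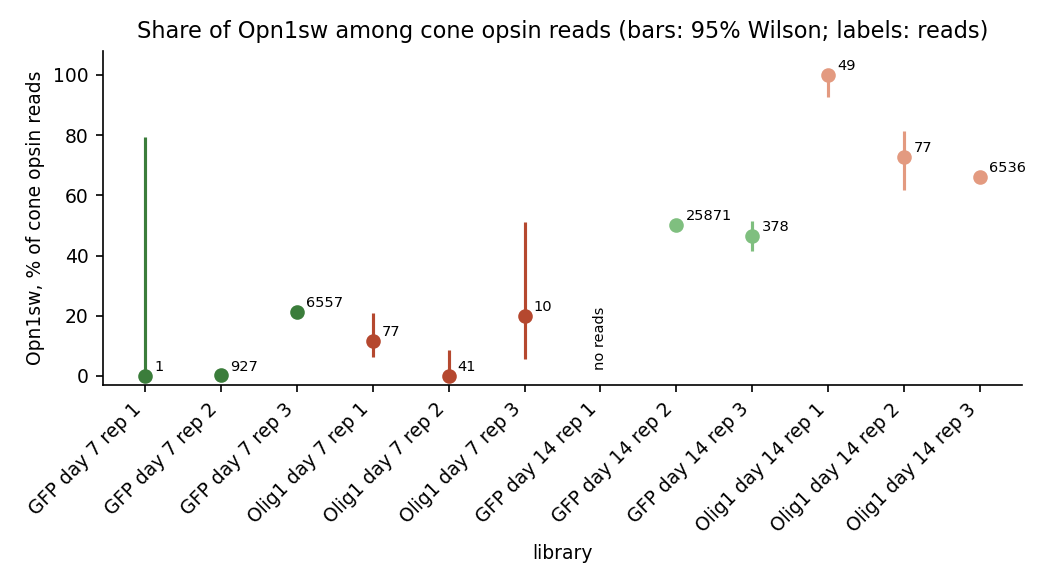
Share of Opn1sw among the reads of both cone opsins (vertical axis, %) in each library (horizontal axis), with 95% Wilson intervals as bars. The day 7 libraries lie between 0 and 21.3% and the day 14 libraries between 46.6% and 100%, and GFP day 14 replicate 1 has no opsin read.

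The promoters of 6 of the 10 genes were found in RefSeq's table for GRCm38.p6 (Opn1sw, Opn1mw, Gnat2, Pde6h, Cnga3 and Arr3), as 300 bases around a transcription start. They are shown for the opsins, which peak in the same libraries, and for Gnat2 and Pde6h from later steps of the cascade. Capitals mark TAATCC, a core site of the photoreceptor factors Crx and Otx2, and AGGTCA, a core site of many nuclear receptors, each searched on both strands with no overlap between matches.
Opn1sw, chr6:29380464-29380763, minus strand: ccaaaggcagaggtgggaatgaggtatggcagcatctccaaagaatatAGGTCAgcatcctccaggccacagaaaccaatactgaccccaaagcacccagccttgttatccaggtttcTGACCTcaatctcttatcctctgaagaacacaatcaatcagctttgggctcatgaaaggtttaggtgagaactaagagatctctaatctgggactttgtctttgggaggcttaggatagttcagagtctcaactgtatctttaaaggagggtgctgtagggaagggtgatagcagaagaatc
Opn1mw, chrX:74127216-74127515, plus strand: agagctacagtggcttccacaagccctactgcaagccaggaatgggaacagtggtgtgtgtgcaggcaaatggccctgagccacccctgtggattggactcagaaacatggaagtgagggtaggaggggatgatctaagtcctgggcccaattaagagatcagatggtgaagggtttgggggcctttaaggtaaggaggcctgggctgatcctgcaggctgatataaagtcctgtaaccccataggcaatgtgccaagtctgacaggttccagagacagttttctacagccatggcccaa
Gnat2, chr3:108092816-108093115, plus strand: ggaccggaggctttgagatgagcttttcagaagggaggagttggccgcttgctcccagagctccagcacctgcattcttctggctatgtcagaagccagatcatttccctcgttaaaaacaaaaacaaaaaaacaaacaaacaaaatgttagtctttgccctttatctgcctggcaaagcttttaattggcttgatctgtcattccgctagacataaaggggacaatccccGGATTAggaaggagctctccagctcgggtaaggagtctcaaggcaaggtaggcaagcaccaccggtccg
Pde6h, chr6:136954273-136954572, plus strand: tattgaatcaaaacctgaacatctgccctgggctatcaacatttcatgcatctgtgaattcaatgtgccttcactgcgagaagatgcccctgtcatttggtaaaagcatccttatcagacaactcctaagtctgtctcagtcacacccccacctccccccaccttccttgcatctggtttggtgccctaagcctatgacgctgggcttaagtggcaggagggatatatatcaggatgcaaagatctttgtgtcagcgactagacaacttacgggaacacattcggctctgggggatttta
TAATCC was found in 1 of the 6 genes, Gnat2, where it reads as the reverse complement and starts 19 bases before the start site. It was found in 7.06% of all 32851 promoters of this length, and in 4 of 6 rod counterpart genes with a promoter in the table. AGGTCA was found in 1 of the 6 genes, Opn1sw, with matches starting 202 and 132 bases before the start site. It was found in 16.3% of all promoters and in 3 of 6 rod counterpart genes. The E-box CANNTG, the kind of site that basic helix-loop-helix factors bind, was found in all 6, beside 72.3% of all promoters. All 6 rod counterpart genes had it as well. Such matches describe letters in a window, not binding.

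Of the transducin subunits, Gnb3 and Gngt2 had reads in all 12 libraries and Gnat2 in 10. Gnat2, the alpha subunit that carries the signal (plus strand, chr3:108092789-108101432), was at 94.6, 55.3 and 156 CPM in GFP day 7 and at 2.61, 1.12 and 0.14 CPM in Olig1 day 7. All 3 GFP libraries were above all 3 Olig1 ones at that day. Day 14 libraries had it at 0, 296 and 6.01 CPM with GFP and at 0, 22.2 and 3.46 CPM with Olig1, and the arms overlapped. The fitted log2 change was -6.06 ± 2.61 at day 7 (edgeR adjusted p = 0.331), -3.43 ± 2.30 at day 14 (0.767) and -4.74 ± 1.73 over both days (0.215). Without GFP day 14 replicate 2 the day 14 value was 1.16. GFP day 7 replicate 1 had Gnat2 at 94.6 CPM with at most 2 reads each for the opsins, Pde6h and Arr3.

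Gngt2, the gamma subunit (plus strand, chr11:95837216-95845734), was at 18.4, 62.7 and 98.4 CPM in GFP day 7 and at 1.03, 0.08 and 11.8 CPM in Olig1 day 7, with no overlap. The day 14 levels were 9.10, 128 and 38.0 CPM with GFP and 4.26, 11.6 and 33.2 CPM with Olig1, with overlap. Its fitted change was -3.90 ± 1.44 at day 7 (edgeR adjusted p = 0.274), -1.84 ± 1.33 at day 14 (0.804) and -2.87 ± 0.97 over both days (0.165). Gngt2 was highest in GFP day 14 replicate 2, where microglia and macrophage markers summed to 4716 CPM, but it was at 62.7 CPM in GFP day 7 replicate 2, where they summed to 1.97 CPM. The part of those cells in its level was not tested. It shares 234 exon bases with Abi3 on the opposite strand, which had at most 118 reads in a library.

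Gnb3, the beta subunit (minus strand, chr6:124834240-124840275), was at 1768, 995 and 846 CPM in GFP day 7 and at 9.24, 10.9 and 85.4 CPM in Olig1 day 7. By day 14 the level was 5578, 3766 and 1100 CPM with GFP and 130, 3.99 and 229 CPM with Olig1. Every GFP library was above every Olig1 library at both days, with the 6 GFP libraries between 846 and 5578 CPM (median 1434) and the 6 Olig1 libraries between 3.99 and 229 CPM (median 48.1). The fitted change was -5.05 ± 1.21 at day 7 (edgeR adjusted p = 0.136), -4.77 ± 1.19 at day 14 (0.429) and -4.91 ± 0.85 over both days (0.0291). Of the 9 genes tested, 3 had every Olig1 library below every GFP library at day 7 (Gnat2, Gnb3 and Gngt2, beside 9.01% of all genes tested), 1 at day 14 (Gnb3, beside 4.12%) and 1 across both days (Gnb3, beside 0.507%). The adjusted p of Gnb3 over both days ranged from 6.49e-07 to 0.159 over 17 alternatives, and the call was lost in 8. These were the fit with no count filter (0.0617) and the fits without GFP day 7 replicate 1 (0.0878), 2 (0.0769) or 3 (0.0917), Olig1 day 7 replicate 1 (0.0864) or 2 (0.159), GFP day 14 replicate 2 (0.0822) or Olig1 day 14 replicate 1 (0.0800).

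**Figure D4:**
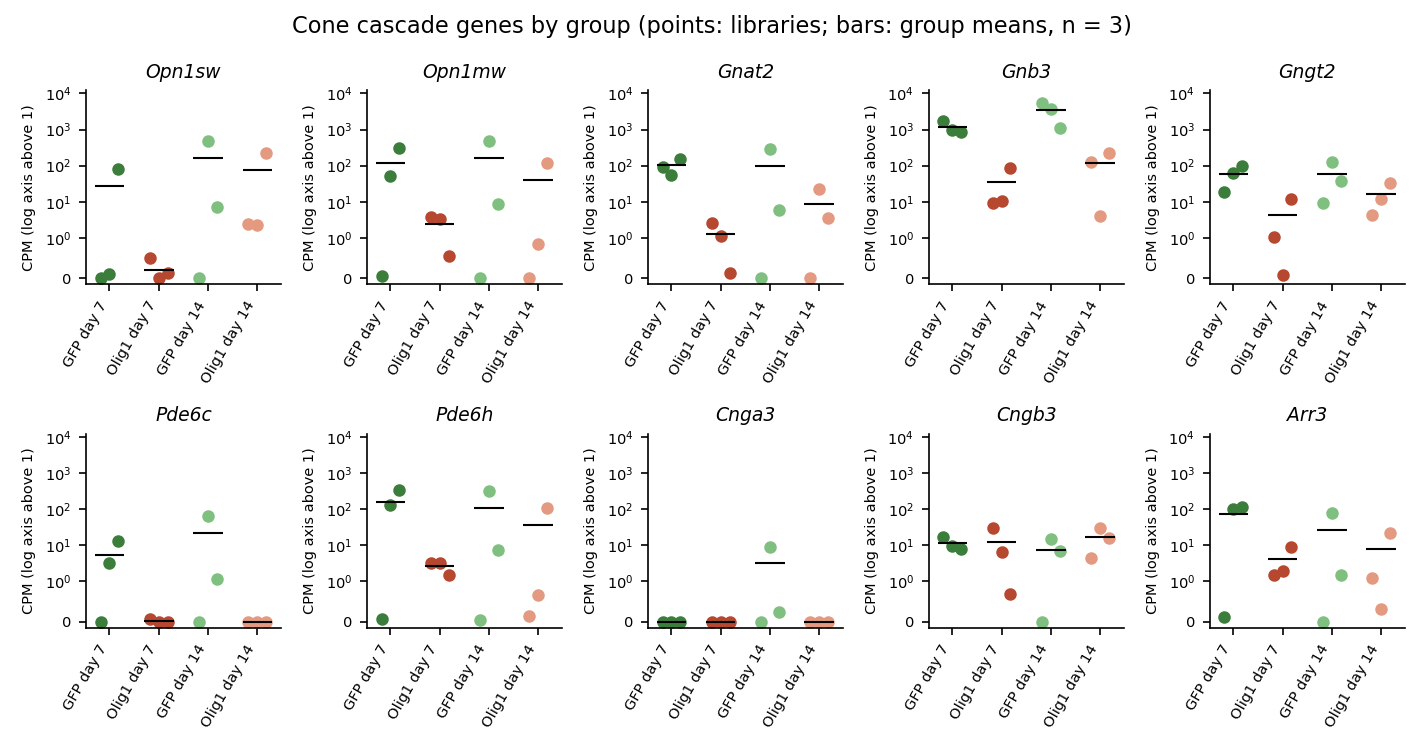
Level of each cone cascade gene (CPM, log axis above 1) by group, with a point for each library and a bar for the mean of 3. The Gnb3 points of the GFP groups, 846 CPM and above, all lie above those of the Olig1 groups, 229 CPM and below, while the opsins, Pde6h and Arr3 overlap between arms.

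The level of Gnb3 was high in the same group of libraries as markers of ON bipolar cells. With the other 9 cone genes its median Pearson r over the 12 libraries was 0.34 and its median rank correlation 0.10, on log2(CPM + 1). Trpm1, the channel of the ON bipolar dendrite, was at 704, 397 and 516 CPM in GFP day 7 and at 9.13, 7.50 and 23.7 CPM in Olig1 day 7. In the day 14 pools it was at 1407, 946 and 284 CPM with GFP and at 79.4, 37.5 and 29.3 CPM with Olig1. Over both days Trpm1 fell by 4.63 ± 0.45 (log2, SE), with an edgeR adjusted p of 0.000261. Gnb3 per 100 CPM of Trpm1 was 164 to 398 in the GFP libraries and 10.6 to 782 in the Olig1 libraries, with overlap. The sum of 12 ON bipolar markers was 1360 to 5813 CPM in the GFP libraries and 273 to 533 CPM in the Olig1 libraries. In GFP day 14 replicate 1, the library with the most Gnb3, the sole other reads of the cascade were from Gngt2 at 9.10 CPM and 1 read of Pde6h. How much of the Gnb3 signal came from bipolar cells and how much from cones was not tested.

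**Figure D5:**
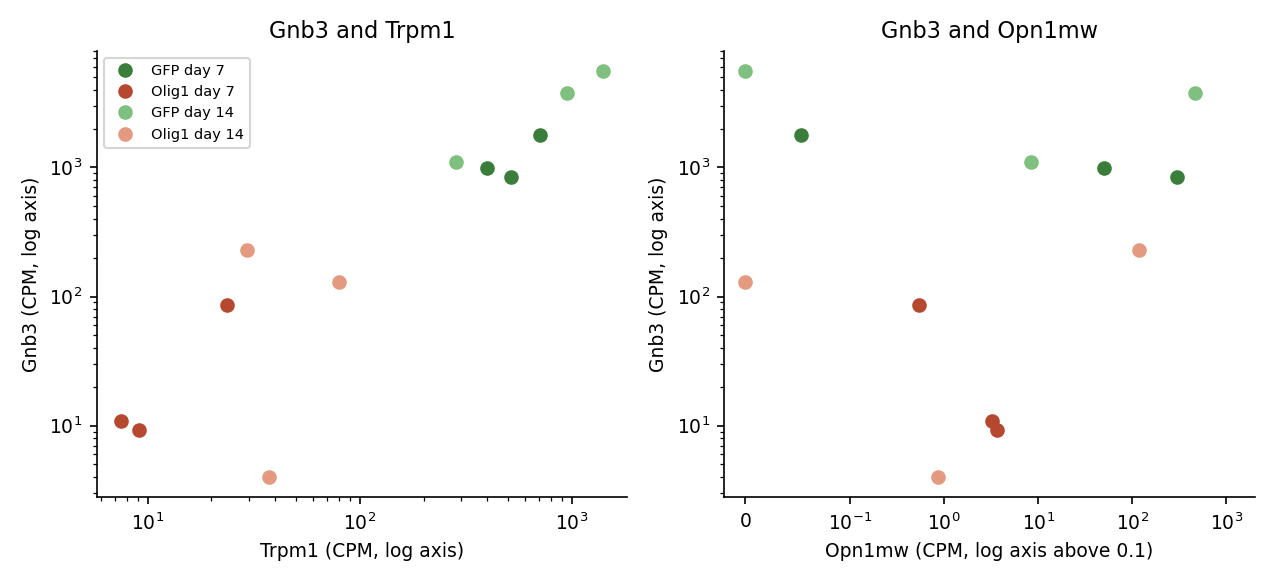
Gnb3 (CPM, log axis) against Trpm1 (left, log axis) and against Opn1mw (right, log axis above 0.1), with a point for each of the 12 libraries coloured by group. GFP libraries have both Gnb3 and Trpm1 high, from 284 CPM of Trpm1 upward, while their Opn1mw runs from 0 to 466 CPM.

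Phosphodiesterase was represented by its catalytic and its inhibitory subunit. Pde6c, the catalytic subunit (plus strand, chr19:38132781-38183958), was at 0, 3.28 and 13.0 CPM in GFP day 7 and at 0.05, 0 and 0 CPM in Olig1 day 7. Day 14 libraries had it at 0, 62.9 and 1.17 CPM with GFP and at 0 in all 3 Olig1 libraries. Over the pooled reads of a group at day 7, GFP had 282 reads and Olig1 had 1, a ratio of 238 after scaling by depth (95% exact interval 42.4 to 9442, counting error only), or 74.1 without GFP day 7 replicate 3. At day 14, 1763 reads against 0 made the pooled level at least 488-fold higher with GFP, against a floor of 3 counts over the group, and at least 12.1-fold higher without GFP day 14 replicate 2. A GFP library was at 0 at each day, so the arms overlapped. The fitted change over both days was -9.68 ± 2.56 (edgeR adjusted p = 0.105), a value that depends on the prior count because of the zeros.

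Pde6h, the inhibitory subunit (plus strand, chr6:136923832-136968865), was at 0.05, 134 and 331 CPM in GFP day 7 and at 3.26, 3.27 and 1.49 CPM in Olig1 day 7. The day 14 levels were 0.04, 315 and 7.18 CPM with GFP and 0.15, 0.65 and 109 CPM with Olig1. The same libraries that were high for Opn1mw were high for Pde6h, and the arms overlapped at both days. The fitted log2 change was -5.56 ± 3.10 at day 7 (edgeR adjusted p = 0.460) and -1.48 ± 2.59 at day 14 (1.00), and without GFP day 14 replicate 2 the day 14 value was 2.94. Pde6h shares 136 exon bases with Arhgdib on the opposite strand, which had at most 800 reads in a library.

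The channel subunits were both low, below 3 CPM per kb on average. Cnga3, the subunit that forms the pore (plus strand, chr1:37214434-37263384), was at 0 in 10 of 12 libraries, with 254 reads (9.20 CPM) in GFP day 14 replicate 2 and 6 reads (0.25 CPM) in GFP day 14 replicate 3. The pooled level at day 14 was at least 72.0-fold higher with GFP, and at least 2.59-fold higher without GFP day 14 replicate 2. Cngb3, the modulatory subunit (plus strand, chr4:19280850-19510623), was at 16.8, 9.74 and 7.72 CPM in GFP day 7 and at 30.1, 6.54 and 0.68 CPM in Olig1 day 7. By day 14 the level was 0, 15.0 and 6.89 CPM with GFP and 4.41, 29.3 and 15.9 CPM with Olig1. Alone among the 9 genes tested it had a positive fitted change, 0.24 ± 1.77 at day 7 (edgeR adjusted p = 0.982) and 1.13 ± 1.79 at day 14 (1.00). The day 7 value was -0.95 without Olig1 day 7 replicate 1.

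Arr3, the cone arrestin that ends the signal (plus strand, chrX:100605497-100618493), was at 0.11, 103 and 112 CPM in GFP day 7 and at 1.52, 1.99 and 9.12 CPM in Olig1 day 7. In the day 14 pools it was at 0, 79.8 and 1.46 CPM with GFP and at 1.21, 0.33 and 22.3 CPM with Olig1. A GFP library lay below all Olig1 libraries at each day. Its fitted change was -4.06 ± 2.37 at day 7 (edgeR adjusted p = 0.472) and -1.69 ± 2.15 at day 14 (0.981), and without GFP day 14 replicate 2 the day 14 value was 3.04.

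The change between days was not past the test for any of the 9 genes. None was called for day 14 against day 7 with GFP (0% of all genes tested), for the same with Olig1 (0.0334%) or for the difference of the Olig1 effect between days (0%), and 0 of 9 had an unadjusted p under 0.05 in any of these. DESeq2's Wald test also called 0 of them in each, with no adjusted p given for Opn1sw. The fitted value farthest from 0 was that of Opn1sw with Olig1, 8.71 ± 4.01 (edgeR adjusted p = 0.433). The difference of the Olig1 effect was 0.28 ± 1.44 for Gnb3 and 5.91 ± 4.40 for Opn1sw (edgeR adjusted p = 1.00 and 0.725).

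Fitted changes were negative for all 9 rod counterparts as well (Gnat1, Gnb1, Gngt1, Pde6a, Pde6b, Pde6g, Cnga1, Cngb1 and Sag). Gnb1 had the value nearest 0 of the 9 in each comparison (-1.79 at day 7, -1.05 at day 14 and -1.42 over both days). It was at 191 to 528 CPM in Olig1 day 7, where Gnat1 was at 98.0 to 129 CPM. At day 7, where DESeq2's Wald test called 1128 genes in all, edgeR called 2 of 9 lower (0.0868% of all genes), with a median fitted change of -4.65. The count was 0 when any 1 of GFP day 7 replicates 1 and 3 and Olig1 day 7 replicates 1 and 2 was left out, 1 without Olig1 day 7 replicate 3 or without the 4 microglia-rich libraries, and 6 by DESeq2's Wald test. Every Olig1 library was below every GFP library for all 9 at day 7 (9.01% of all genes), for 1 at day 14 (4.12%) and for 1 over both days (0.507%). At day 14, 0 of 9 were called, with a median of -1.58 (3 of 9 at an unadjusted p under 0.05, beside 10.4% of all genes, and 0 by DESeq2's Wald test). At day 7 and over both days, 9 of 9 had an unadjusted edgeR p under 0.05, beside 13.9% and 14.9% of all genes. These 9 also come from the same pools. Over both days 4 of 9 were called lower (0.274% of all genes), with a median of -3.01: Pde6g, the inhibitory phosphodiesterase subunit, was at -3.60 ± 0.55, the channel subunit Cngb1 at -3.98 ± 0.63, the transducin alpha subunit Gnat1 at -3.997 ± 0.73 and the arrestin Sag at -3.94 ± 0.80 on the log2 scale (edgeR adjusted p = 0.00939, 0.00939, 0.0326 and 0.0498). The calls of Gnat1 and Sag were lost in 12 and 15 of 17 alternatives. The count over both days was 1 without Olig1 day 7 replicate 1 or 2 and 2 with the replicate block, without the 4 microglia-rich libraries, or without replicate 1 or 3 of GFP day 7, replicate 3 of Olig1 day 7, replicate 2 or 3 of GFP day 14, or replicate 1 or 3 of Olig1 day 14. The cone gene per 100 of its rod counterpart, on CPM per kb within a library, showed no pair of 8 with separate arms at day 7. On day 14, 1 of 8 pairs was lower in every Olig1 library than in any GFP library, Gnb3 per 100 of Gnb1 (0.948 to 9.76 against 54.4 to 810). Another 1 of 8 was higher, Cngb3 per 100 of Cngb1 (31.6 to 593 against 0 to 8.05). No share over other gene pairs was computed and no test was run, so both are given as values only. Since Gnb3 is also a gene of ON bipolar cells, its ratio is not one of cones to rods alone. Gnb1 did not follow Gnat1 in every library either: in Olig1 day 14 replicate 2 it was at 682 CPM with Gnat1 at 31.6 CPM. Whether Gnb1 reads came from cells other than rods was not tested.

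Of 15 genes for shutoff, cyclic GMP synthesis and calcium feedback, which serve rods and in part cones, 14 were tested. At day 7, 1 was called lower (Guca1b, beside 0.0868% of all genes). That count was 0 when any 1 of GFP day 7 replicates 1 and 3 and Olig1 day 7 replicates 1 and 2 was left out. It was 5 by DESeq2's Wald test, beside 1128 genes in all. At day 14 none was called (3 of 14 at an unadjusted p under 0.05, beside 10.4% of all genes, and 0 by DESeq2's Wald test). At day 7 and over both days, 7 of 14 had an unadjusted edgeR p under 0.05 each time, beside 13.9% and 14.9% of all genes. Over both days 4 were called lower (0.274% of all genes). Those 4 were the guanylate cyclase activator Guca1b (-3.48 ± 0.56), the transducin carrier Unc119 (-3.03 ± 0.56), the kinase inhibitor recoverin, Rcvrn (-3.61 ± 0.71), and phosducin, Pdc (-4.08 ± 0.77), with edgeR adjusted p of 0.0105, 0.0275, 0.0327 and 0.0334. The count over both days was 0 without the 4 microglia-rich libraries, 2 with no filter, 1 without replicate 1 or 3 of GFP day 7, Olig1 day 7 replicate 1 or 2 or GFP day 14 replicate 2, and 2 without GFP day 7 replicate 2, Olig1 day 7 replicate 3, GFP day 14 replicate 3 or Olig1 day 14 replicate 1. Of 10 factors of cone and photoreceptor identity, 0 were called in any of the 3 comparisons, and up to 3 by other settings. At day 7, at day 14 and over both days, 6, 0 and 6 of 10 had an unadjusted p under 0.05. The shares over all genes were 13.9%, 10.4% and 14.9%. Over both days Otx2 was at -3.50 ± 0.95 and Crx at -2.62 ± 0.87, while Thrb, the receptor that sets medium-wavelength opsin identity, was at 2.51 ± 1.09 and Rxrg at 1.08 ± 1.88 (edgeR adjusted p = 0.105, 0.159, 0.293 and 0.878).

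Within the cascade, the levels of Opn1mw, Pde6h and Arr3 followed one another across the 12 libraries. On log2(CPM + 1), Opn1mw and Pde6h were the most alike pair (Pearson r = 0.99, Spearman rank correlation 0.96), and Gnb3 and Cngb3 the least (r = -0.36, rank correlation -0.28). Outside the cascade, the 5 genes of 12518 most like its mean level were Manba (r = 0.96), Zbtb7b (0.93), Rtel1 (0.92), Rgs20 (0.91) and Cfap54 (0.90). None of the 5 exceeded 23.2 CPM in a library. These correlations describe 12 points that share pools, depth and a few high libraries, and carry no p.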

How the data were processed

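Polyadenylated RNA of 12 pools was amplified with the SMART-Seq HT kit, per the labels' protocols. The deposited values are raw counts of reads per Ensembl gene, made by the authors with FastQC, HISAT2 and HTSeq on mm10, per the submitters' processing notes. No tool version, gene annotation or strand mode of counting is given in these sources. The table of the whole series was used, since the files of 4 libraries ended early, and 0 genes differed between the sources where both had a value. Of 54232 genes, 54165 matched a symbol in the GENCODE M21 annotation (GRCm38). Libraries held 12534515 to 27602459 counts.

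CPM is the count times 1000000 over the library's total, and CPM per kb divides it by merged exon length. Tests used edgeR 4.0.16 in R 4.3.3 (quasi-likelihood, robust, TMM scaling, filterByExpr with a minimum count of 10), with 1 fit of all 12 libraries, Benjamini-Hochberg adjustment over 14985 genes and calls at an adjusted p under 0.05. The SE is the fitted change over the square root of F. Alternatives were DESeq2 1.42.0 (size factors, and its Wald test), no filter, a replicate block, a fit of the compared groups only, leaving out each library, and leaving out the 4 microglia-rich libraries. The scripts were tested on simulated data. Same-numbered libraries showed no shared deviation, though pools this variable could hide one, so replicate numbers were not used as pairs in the main fit. The labels speak of several batches without assigning libraries to them, so batch entered no test.

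The members and all lists were chosen with earlier results of these data known. All 10 members are named, other pathway genes by counts and called genes, and like genes as the 5 with the highest Pearson r to the members' mean log2(CPM + 1), without predicted gene models. A further rod gene and the ratio that uses it are not reported here.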

Additional observations from a re-analysis of the deposited data

How the results depend on the processing

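The common biological coefficient of variation in edgeR was 1.35, and at a count of 0 the depth allows up to 0.109 to 0.239 CPM. Of 600 alternative values of single genes, 481 kept direction and side of the threshold, 80 lost a call, 8 gained a call and 31 changed sign. Genes called at day 7 numbered 34, at day 14 numbered 6 and over both days 98. DESeq2's Wald test gave 1128, 842 and 1284, no filter gave 218, 23 and 401, and leaving out a library gave 1 to 58, 0 to 6 and 26 to 133. At day 14, a fit of these groups only gave 0. Without the 4 microglia-rich libraries, 176 were called at day 14 and 349 over both days. For the difference between days, GFP over time and Olig1 over time, the counts were 0, 0 and 5, with Wald 632, 816 and 798, with no filter 40, 13 and 59, and without a library 0 to 1, 0 and 0 to 10. DESeq2 size factors gave 0 for Olig1 over time. Cone genes called were 1 at day 7 (Gnb3) and 2 at day 14 (Gnb3 and Pde6c) by Wald, and over both days 4 by Wald (Gnat2, Gnb3, Gngt2 and Pde6c), 2 with no filter (Gngt2 and Pde6c) and 0 to 1 without a library. The cause was not tested.

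Same-numbered libraries did not deviate together (r from -0.065 to 0.044 over 18 pairs, beside -0.064 to 0.077 for other pairs). In pools this variable a shared batch could be missed, so pairing is not excluded. The replicate block is a check only. With the replicate block, 1 gene was called at day 14, 64 over both days and 1 for the difference between days, and 4 values changed sign: Opn1mw 2.21 and Pde6h 0.30 at day 7, Arr3 0.27 at day 14 and Opn1sw -3.39 for the difference. Gnb3 over both days was -5.38 with the block (edgeR adjusted p = 0.0405).

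Without the 4 microglia-rich libraries, GFP day 14 is left with replicate 1 alone, where most of the cascade is at 0 and which is assumed to vary like the other groups. Signs then changed for Opn1sw (2.02 at day 7, 13.68 at day 14, 7.85 over both), Opn1mw (12.69 at day 14, 5.00 over both), Gnat2 (10.54, 2.72), Pde6h (9.80, 2.81), Arr3 (10.38, 2.87) and Gngt2 (1.02 at day 14), but not for Gnb3 (-6.03 over both days, edgeR adjusted p = 0.0261). Leaving out a library at a time, values at day 14 ran from -5.99 to 4.01 for Opn1sw, -8.36 to 2.83 for Opn1mw, -5.87 to 1.16 for Gnat2, -7.92 to 2.94 for Pde6h and -5.04 to 3.04 for Arr3. They ran from -8.25 to 1.76 for Opn1sw and -0.95 to 0.81 for Cngb3 at day 7, and from -6.42 to 0.41 for Opn1sw over both days. For the difference between days they ran from -2.71 to 10.88 for Opn1sw and -0.58 to 1.68 for Gnb3, and for GFP over time from -2.14 to 11.43 for Opn1sw. DESeq2's Wald test gave no adjusted p for Opn1sw and Unc119.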
